A study of Mus musculus with 8 samples.

Results

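The genes examined here are 59 mouse genes for splicing factors and other RNA-binding proteins, in which changes of 5-hydroxymethylcytosine were read in mouse embryonic stem cells after loss of Ogt. They were taken from a list of gene families, and all 59 were found among the 21774 protein-coding genes of the RefSeq table used. A region was counted in a gene when its midpoint fell in the gene span extended by 1 kb at both ends. By this rule the 59 genes held 61 of the 12594 regions in the authors' 2 deposited lists. The name of each list gave the direction of change. The rule for membership is by gene family and uses no measured value, but the list was drawn up with earlier results of these data known, and it asked for the broad lower region in Rbpms.

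The 8 samples came from mouse embryonic stem cells of genotype Ogt fl/fl, grown on feeder cells and sorted to remove them. Ogt iKO cells had been cultured with 4-hydroxytamoxifen (4-OHT) for 6 days and sorted for YFP. Control cells had the same floxed genotype and were cultured without 4-OHT, so 4-OHT exposure and YFP sorting cannot be told apart from the loss of Ogt. The Cre behind the deletion is not given in the sources used here, and lists of positions allow no check of Ogt loss or of stem cell markers. Each condition gave 2 CMS-IP libraries, in which DNA carrying 5-hydroxymethylcytosine is recovered with an antibody after bisulfite treatment, and 2 input libraries. The lists hold 8578 regions named as higher and 4016 named as lower in the knockout (the lists' own spelling of the knockout, OgtiTKO, was read as Ogt iKO), with positions on mm10 and no value for any sample. Depth, fold change and replicate spread are therefore unknown for every region below, no comparison could be tested across samples, and counts are given as descriptions beside those of other genes.

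OGT adds O-GlcNAc to serine and threonine residues of proteins in the nucleus and cytoplasm, and it binds the TET enzymes, which oxidise 5-methylcytosine to 5-hydroxymethylcytosine. Alternative splicing is set by RNA-binding proteins that sit on the transcript near splice sites. SR proteins and hnRNPs are present in nearly all cells and act on most transcripts, SR proteins mostly as activators of exon inclusion and several hnRNPs as repressors. RBFOX, CELF, ELAVL, NOVA, MBNL, ESRP and similar families have members that are restricted to neurons, muscle, epithelium or germ cells, and they set the splicing pattern or the mRNA stability typical of those tissues. IGF2BP, TIA, PUM and CPEB proteins act on stability or translation of mRNA, although TIA proteins also act in splicing.

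Few of the regions were near a listed start site, and few would be at the share in other genes. Of 52 regions in the genes whose starts are listed, 0 overlapped a promoter window (250 bases before to 50 bases after a listed start), where 1.39% of the 5481 regions in other protein-coding genes did. The starts nearest to a region midpoint were those of Mbnl1, Srsf10 and Srsf4, all near lower regions. Upstream sequence is shown for these genes because they hold the closest approaches to a listed start. The midpoint lay 1582 bp upstream of the inner of the 2 listed Mbnl1 starts. In Srsf10 it lay 2253 bp downstream of the start, and in Srsf4 2574 bp downstream of the nearest of 3 listed starts and 2997 bp downstream of the outermost one. The Srsf4 sequence shown is the one before the outermost start, not the nearest. Each line below gives the 250 bases before the start in RefSeq (GRCm38.p6, plus strand), with CpG dinucleotides, the main site of methylation and hydroxymethylation in mammalian DNA, in capitals.
Mbnl1, chr3:60500929-60501178: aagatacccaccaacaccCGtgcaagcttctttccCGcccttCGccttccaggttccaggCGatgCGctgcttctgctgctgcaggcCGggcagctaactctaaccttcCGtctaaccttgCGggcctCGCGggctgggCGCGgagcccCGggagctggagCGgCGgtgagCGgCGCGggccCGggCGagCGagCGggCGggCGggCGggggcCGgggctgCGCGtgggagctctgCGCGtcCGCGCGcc
Srsf10, chr4:135855821-135856070: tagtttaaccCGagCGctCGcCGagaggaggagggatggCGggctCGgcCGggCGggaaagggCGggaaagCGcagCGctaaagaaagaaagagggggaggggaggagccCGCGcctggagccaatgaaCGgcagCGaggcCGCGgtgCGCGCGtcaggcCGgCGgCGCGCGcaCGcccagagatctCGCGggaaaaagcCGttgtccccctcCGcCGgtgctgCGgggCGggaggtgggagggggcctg
Srsf4, chr4:131873387-131873636: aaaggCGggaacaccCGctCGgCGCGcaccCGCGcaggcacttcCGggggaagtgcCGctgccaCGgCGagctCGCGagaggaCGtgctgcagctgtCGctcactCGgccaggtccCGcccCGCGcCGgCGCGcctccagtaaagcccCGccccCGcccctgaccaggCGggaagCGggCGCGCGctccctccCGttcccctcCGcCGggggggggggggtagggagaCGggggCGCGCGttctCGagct

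These 3 windows are rich in CpG. The motif searched was CG, which reads the same on both strands, and it occurred 33 times in the Mbnl1 window, 33 times in the Srsf10 window and 37 times in the Srsf4 window. Of 21263 promoters of protein-coding genes, 5.13% held at least 33 and 2.76% at least 37 in the same 250 bases. Promoters were listed for 49 of the 59 genes. Taking the listed promoter with the most CpG for each gene, the median was 33 for the 9 SR genes, 24 for the 10 hnRNP genes, 21 for 23 genes of the tissue-restricted families and 11 for 17443 other protein-coding genes. These counts describe the sequence only, and no differential region overlapped any of the listed windows of the 59 genes.

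Lower regions made up a larger share in these genes than in others, by a difference at the edge of counting error. The 59 genes held 35 higher and 26 lower regions, so 57.4% were higher (exact Clopper-Pearson 95% interval 44.1 to 70.0%, counting error only), and 69.7% of regions in other protein-coding genes were, a share just inside that interval. At the mean counts of genes of like length, described below, 70.8% would be higher, a share just outside the interval. A region in the spans of several genes was counted in each. The lower region in Rbpms, asked for when the genes were chosen, is included in these counts. It is also included in those of its group and length class below. At least 1 region of either direction was found in 27 of the 59 genes, against 20.5% of all protein-coding genes. Higher regions lay in 18 genes (30.5%, against 15.3% of all protein-coding genes) and lower regions in 18 (30.5%, against 8.51%). Both directions occurred together in 9 genes, against 3.34% of all protein-coding genes, and all 9 belonged to the tissue-restricted families. Only 5 of the 9 were marked as tissue-restricted themselves, since these families also have broadly expressed members. These 9 genes are long, with spans of 65.9 to 1057 kb. No share for genes of like length was computed for both directions, so the part of length in this count was not tested.

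These genes are long, with a median span of 48.8 kb, where other protein-coding genes have one of 17.2 kb. Other protein-coding genes within 20% of the length of each gene served as the comparison, with 21 such genes for Rbfox1, the longest, and between 66 and 2496 for the rest. Averaged over the 59 genes, 36.7% of these held a region, against 45.8% observed (27 of 59). Their mean counts, summed over the 59 genes, came to 31.2 higher and 12.9 lower regions, against 35 and 26 observed. Higher regions thus stood near the level of genes of like length and lower regions above it. No interval was computed for these sums.

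**Figure D1:**
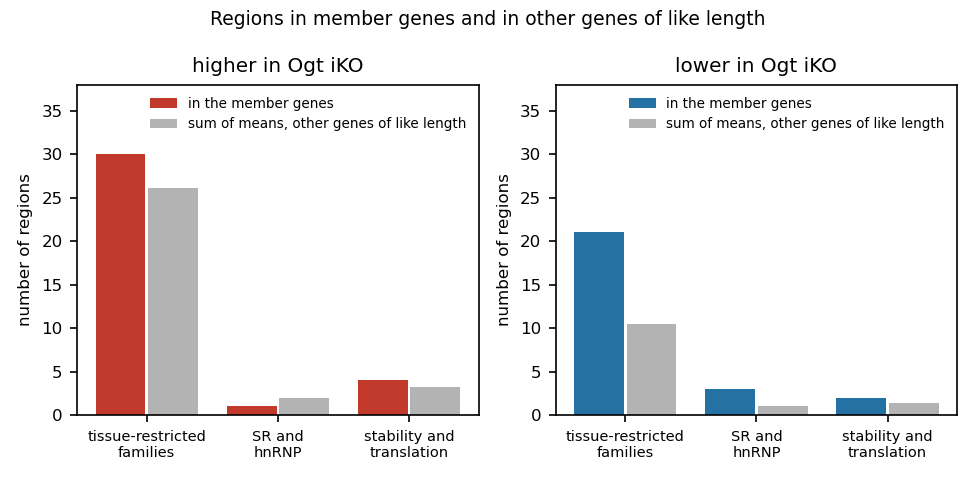
Number of higher (left) and lower (right) regions in the tissue-restricted families (32 genes), the SR and hnRNP genes (19) and the genes for mRNA stability and translation (8). Grey bars are the mean counts of other protein-coding genes within 20% of each gene's length, summed over the genes; there is no error bar because no replicate values exist. In the tissue-restricted families the coloured bars stand at 30 higher against 26.1 and 21 lower against 10.5.

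The tissue-restricted families held regions more often than the constitutive factors, and so did other genes of their length. Of the 32 genes in the tissue-restricted families (median span 117 kb), 19 held a region (59.4%, exact 95% interval 40.6 to 76.3%), against 49.9% for genes of like length. Of the 19 SR and hnRNP genes (median span 13.7 kb), 4 did (21.1%, exact 95% interval 6.05 to 45.6%), against 13.3% for genes of like length. The intervals for the 32 and the 19 genes include the shares of genes of like length. Taken apart, 3 of 9 SR genes held a region (33.3%, exact 95% interval 7.49 to 70.1%, against 9.14%). Of the 10 hnRNP genes, 1 did (exact 95% interval 0.253 to 44.5%, against 17.1%). Their intervals overlap, and each includes the share of genes of like length, so these counts do not separate SR from hnRNP genes. With only regions of at least 453 bp, 0% of the SR and hnRNP genes held one, against 7.63% of genes of like length. The tissue-restricted families held 30 higher and 21 lower regions, against 26.1 and 10.5 in genes of like length, and the SR and hnRNP genes held 1 and 3, against 1.94 and 0.992. The intervals treat genes as independent draws and cover counting error only.

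Length classes show where the genes departed from others. From 100 to 300 kb, 13 of the 14 genes held a region, against 62.2% of 1856 other protein-coding genes, and 9 held a lower region (64.3%, against 27.3%). Mbnl2 was the exception. Rbpms is among the 13 and the 9 genes, and its lower region was asked for when the genes were chosen. From 30 to 100 kb, 5 of 18 genes held a region (27.8%), near the 34.1% of 5045 others. No interval was computed for the length classes. From 10 to 30 kb, 3 of 13 genes held a region (23.1%, against 13.3%), all SR genes, and below 10 kb none of 8 did, where 3.48% of others did. All 6 genes of 300 kb or more held a region, against 77.9% of 551 others. The tissue-restricted families and the SR and hnRNP genes share only the classes below 100 kb. There, 0 of 1 and 0 of 7 genes held a region below 10 kb, 0 of 2 and 3 of 9 from 10 to 30 kb, and 3 of 12 and 1 of 3 from 30 to 100 kb. At equal length these counts are too small to order the groups.

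**Figure D2:**
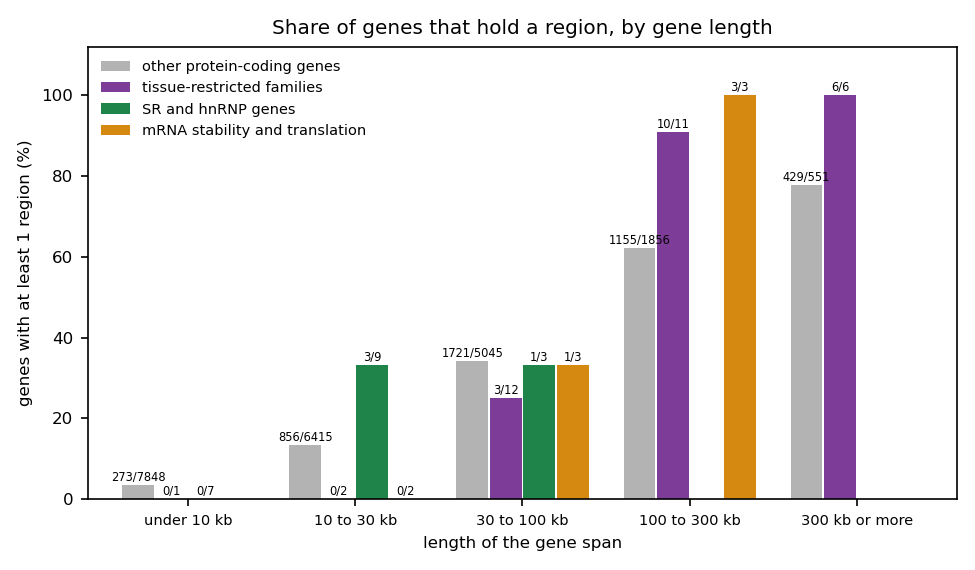
Share of genes with at least 1 region (vertical axis, %) by length of the gene span (horizontal axis), for other protein-coding genes (grey) and the 3 groups of RNA-binding protein genes; the fractions above the bars are genes with a region over genes in the class. In other protein-coding genes the share rises from 3.48% in the shortest class to 77.9% in the longest, and from 100 to 300 kb the tissue-restricted families reach 10 of 11 genes against 1155 of 1856 others.

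**Figure D3:**
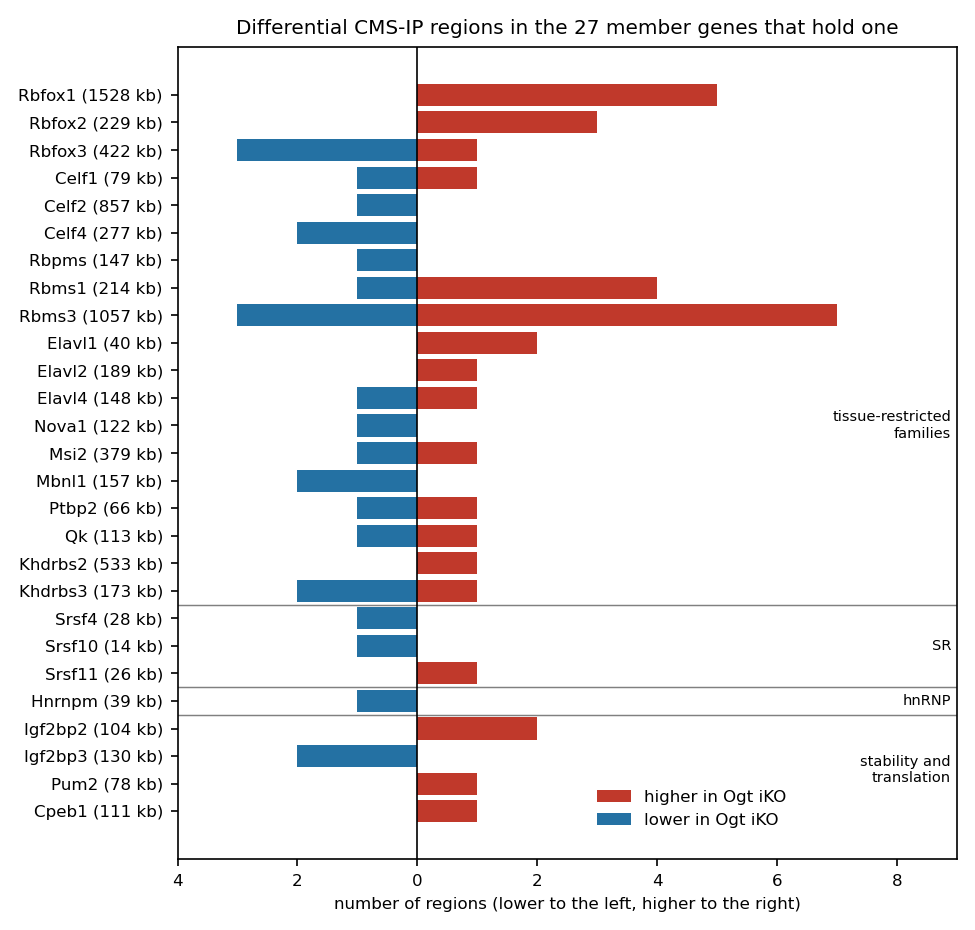
Number of lower regions (to the left of 0) and higher regions (to the right) in each of the 27 genes that held one, with the span length in brackets and the genes grouped by role. Rbms3 holds the most regions of either direction, 7 higher and 3 lower, and 9 genes have bars on both sides.

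RBFOX genes encode splicing regulators of neurons, heart and muscle, and all 3 held regions, 9 higher and 3 lower in all, against 5.24 and 2.26 summed from the means of genes of like length. Rbfox1 (1528 kb, chromosome 16) held 5 higher regions and 0 lower. They lay at chr16:6122765-6122964, chr16:6801755-6801954, chr16:6942508-6942707, chr16:7115885-7117727 and chr16:7252087-7252432. The fourth spanned 1843 bp and the others 200 to 346 bp, and the midpoint of the first lay at 15.6% and that of the last at 89.5% of the span from its 5′ end. Among 21 other genes of like length, 19.0% held at least 5 higher regions. Rbfox2 (229 kb), the member most broadly expressed and active in embryonic stem cells, held 3 higher regions at chr15:77083763-77084258, chr15:77134590-77134822 and chr15:77136048-77136247. The last 2 were 1225 bp apart, and the first also lay in the span of 1700109K24Rik extended by 1 kb. At least 3 higher regions were found in 11.3% of other genes of like length.

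Rbfox3 encodes NeuN, the nuclear marker of mature neurons, and its regions were mostly lower. In its 422 kb span, 3 lower regions of 256, 200 and 317 bp lay at chr11:118692781-118693036, chr11:118708220-118708419 and chr11:118803049-118803365. A single higher region of 1163 bp lay at chr11:118651522-118652684, further towards the 3′ end than all 3. At least 3 lower regions occurred in 2.51% of 239 other genes of like length. Rbfox1 and Rbfox2 held higher regions alone. Lower regions occurred in 52.4% of other genes of like length for Rbfox1 and 34.5% for Rbfox2, so holding none was common at these lengths.

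CELF proteins regulate splicing and decay of mRNA through GU-rich sites, and 3 of 5 genes held regions, 1 higher and 4 lower, against 4.42 and 1.66 in genes of like length. Celf1, the ubiquitous member (79.2 kb), held a lower region of 818 bp at chr2:90971991-90972808 and a higher region of 852 bp at chr2:90996501-90997352, 23692 bp further on. Celf2 (857 kb) held a single lower region of 211 bp at chr2:7371531-7371741. Among 74 other genes of like length 79.7% held a region, with mean counts of 2.36 higher and 0.905 lower, so Celf2 had few for its length. Celf4 (277 kb), a neuronal member, held 2 lower regions of 646 and 561 bp at chr18:25500674-25501319 and chr18:25685095-25685655, and at least 2 lower regions occurred in 8.21% of genes of like length. Celf5 and Celf6, short neuronal members, held none.

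Rbpms, which binds CAC-containing sites in transcripts of the heart, smooth muscle and retinal ganglion cells, held 1 region. That region was singled out for its breadth when the genes were chosen, so its presence and width are descriptions only. This lower region spanned 5525 bp at chr8:33906383-33911907, the third widest of the 4016 lower regions. At least 1 lower region was found in 26.6% of other genes of like length. Its midpoint lay 20777 bp inside the upper-coordinate end of the 147 kb span. The next widest lower region in the 59 genes was 955 bp, in Mbnl1. Rbpms2, the paralog (31.2 kb), held no region, and the nearest one was 103955 bp away and lower.

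RBMS genes encode proteins that bind single-stranded nucleic acids, and they held the most regions of any family, 11 higher and 4 lower, against 3.89 and 1.5 in genes of like length. Rbms1 (214 kb) held 4 higher regions at chr2:60762387-60763435, chr2:60776952-60777151, chr2:60779793-60780318 and chr2:60827426-60828482. They were 1049, 200, 526 and 1057 bp wide, and all lay in the 3′ part of the gene, at 63.6 to 94.0% of the span. Its lower region of 350 bp at chr2:60932041-60932390 lay at 14.8% from the 5′ end. At least 4 higher regions were found in 3.88% of genes of like length.

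Rbms3 (1057 kb) held 7 higher and 3 lower regions, the most of the 59 genes, against means of 2.62 and 0.955 in 66 genes of like length. At least 7 higher regions occurred in 12.1% of those genes, and at least 3 lower regions in 10.6%. Its higher regions lay at chr9:116728441-116729048, chr9:116965459-116965759, chr9:116979627-116980505, chr9:117071134-117071937, chr9:117098666-117099577, chr9:117222886-117223164 and chr9:117451228-117451510, with widths of 279 to 912 bp. They stretched over the body of the gene. The lower regions lay at chr9:116649339-116649796, chr9:117341347-117341578 and chr9:117614628-117615405, so that the outermost regions at both ends of the row were lower. The last of these, 778 bp wide, was 14897 bp from a listed start. Rbms2 (50.8 kb) held none.

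ELAVL proteins, the Hu family, stabilise mRNA with AU-rich sites; Elavl1 (HuR) is present in nearly all cells and Elavl2, Elavl3 and Elavl4 mostly in neurons. The family held 4 higher regions and 1 lower, against 2.07 and 0.891 in genes of like length. Elavl1 had 2 broad higher regions in only 40.4 kb, of 2349 bp at chr8:4288299-4290647 and 1924 bp at chr8:4314629-4316552. These were the widest higher regions of the set, ranking 414 and 633 among the 8578 of the list. At least 2 higher regions occurred in 2.86% of other genes of like length. Elavl2 (189 kb) held 1 higher region of 556 bp at chr4:91311291-91311846. Elavl4 (148 kb) held a higher region of 211 bp at chr4:110232087-110232297 and a lower one of 200 bp at chr4:110347079-110347278, 4733 bp downstream of a listed start. Elavl3 (37.1 kb) held none, with a higher region 12781 bp beyond its span.

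The NOVA, PTBP and Musashi genes together held 2 higher and 3 lower regions. The means of genes of like length came to 0.853 higher and 0.376 lower for NOVA (0 and 1 observed), 0.874 and 0.366 for PTBP (1 and 1) and 2.18 and 0.829 for Musashi (1 and 1). The counts were near those means. Nova1 (122 kb), which encodes a splicing regulator of neurons, held 1 lower region of 515 bp at chr12:46700199-46700713, near the 3′ end of the span, and Nova2 (39.4 kb) none. Ptbp2, the neuronal polypyrimidine tract protein (65.9 kb), held a higher region of 378 bp at chr3:119733072-119733449 and a lower region of 386 bp at chr3:119776177-119776562, the lower one 7019 bp downstream of the start. Its ubiquitous paralog Ptbp1, the shortest of the family, and Ptbp3 (77.5 kb) held none. Msi2, a Musashi protein of stem and progenitor cells (379 kb), held a higher region of 791 bp at chr11:88411001-88411791 and a lower region of 579 bp at chr11:88622997-88623575, which also lay in 0610039H22Rik. Msi1 (96.6 kb) held none.

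Mbnl1 and Mbnl2 encode muscleblind proteins, which drive the switch from fetal to adult splicing, and the pair differed at nearly equal length, with 0 higher and 2 lower regions in all against 1.59 and 0.638 in genes of like length. Mbnl1 (157 kb) held 2 lower regions of 585 and 955 bp at chr3:60499305-60499889 and chr3:60515886-60516840, on either side of the inner start shown above. At least 2 lower regions occurred in 4.91% of other genes of like length. Mbnl2 (156 kb) held none of either direction, and its nearest region was lower and 61643 bp away.

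Among the STAR proteins, a family of KH-domain splicing regulators that includes quaking and the SAM68 group, 3 of 4 genes held regions, where 57.3% of genes of like length did. There were 3 higher and 3 lower regions, against 3.67 and 1.43. Qk (113 kb), needed for myelination, held a lower region of 517 bp at chr17:10232419-10232935 and a higher one of 871 bp at chr17:10246666-10247536. Khdrbs2 (533 kb) held 1 higher region of 914 bp at chr1:32693201-32694114. Khdrbs3 (173 kb) held a higher region of 524 bp at chr15:68930146-68930669 and 2 lower regions of 415 and 208 bp at chr15:68961962-68962376 and chr15:69003527-69003734. The ubiquitous member Khdrbs1 (SAM68, 41.5 kb) held none. Esrp1 and Esrp2, the epithelial regulators, held none.

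**Figure D4:**
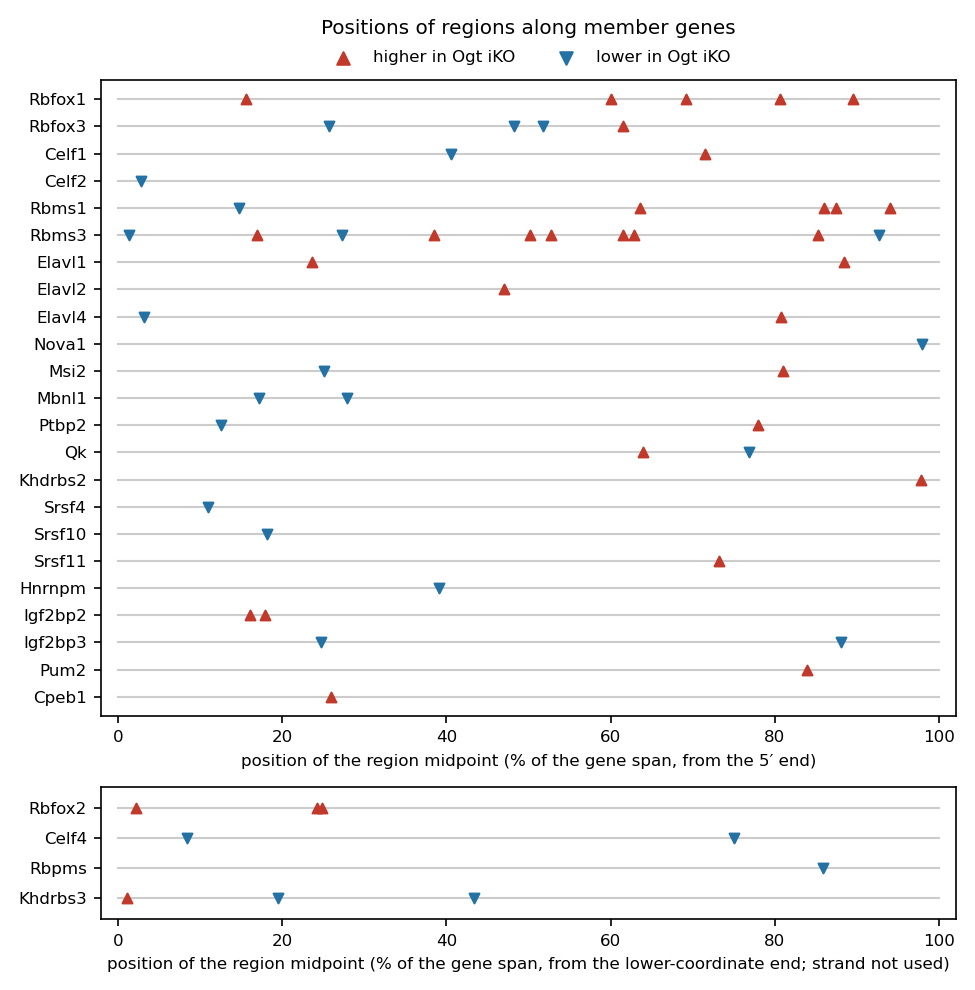
Midpoints of the 61 regions along the gene spans (horizontal axis, % of span length), as upward triangles where the region was higher and downward triangles where it was lower in Ogt iKO. The upper panel runs from the 5′ end for 23 genes with a listed strand (52 regions), and the lower panel from the lower-coordinate end for 4 genes whose strand was not used (9 regions). In Rbms1, Ptbp2, Msi2 and Elavl4 the lower region lies left of every higher one.

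SR genes held 1 higher and 2 lower regions, against 0.564 and 0.324 in genes of like length, and all 3 were narrow. Srsf4 (28.2 kb) held a lower region of 252 bp at chr4:131876509-131876760 and Srsf10 (14.2 kb), an SR-like repressor that is regulated by dephosphorylation, one of 219 bp at chr4:135858215-135858433. Srsf11 (25.8 kb) held a higher region of 256 bp at chr3:158017685-158017940, 13936 bp downstream of a listed start. Lower regions occurred in 6.58% of other genes of like length for Srsf4 and 4.00% for Srsf10. Srsf1, Srsf2, Srsf3, Srsf5, Srsf6 and Srsf7, with spans of 3.8 to 10.7 kb, held none.

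Of 10 hnRNP genes, Hnrnpm alone held a region. It was lower, 271 bp wide and at chr17:33669979-33670249, at 39.1% of the 39.2 kb span from its 5′ end. Hnrnpm encodes a regulator of alternative splicing in epithelial and mesenchymal cells. Raly, at 80.1 kb the longest of the group, held none, although 45.0% of other genes of like length did. The other 8 hnRNP genes, Hnrnpa1, Hnrnpa2b1, Hnrnpc, Hnrnpd, Hnrnpf, Hnrnpk, Hnrnpl and Hnrnpu, span 6.8 to 30.7 kb. Together the 10 genes would hold 1.38 higher and 0.668 lower regions at the means of genes of like length, against 0 and 1 observed, so their count was near that of genes of like length.

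Genes for mRNA stability and translation held 4 higher and 2 lower regions in 4 of 8 genes, against 3.18 and 1.38 in genes of like length. Among the IGF2BP paralogs, fetal RNA-binding proteins that protect mRNA from decay, Igf2bp2 held only higher and Igf2bp3 only lower regions. Igf2bp2 (104 kb) held 2 higher regions of 826 and 425 bp at chr16:22144184-22145009 and chr16:22146283-22146707, 1273 bp apart. Igf2bp3 (130 kb) held 2 lower regions of 554 and 200 bp at chr6:49100621-49101174, also in the extended span of Malsu1, and chr6:49183107-49183306. Igf2bp1 held none. Pum2, a translational repressor of germ and stem cells (78.5 kb), held a higher region of 1474 bp at chr12:8739241-8740714. Cpeb1 (111 kb), which controls cytoplasmic polyadenylation, held one of 320 bp at chr7:81428957-81429276. Higher regions occurred in 34.2% of other genes of like length for Pum2 and 41.7% for Cpeb1. Cpeb4, Tia1 and Tial1 held none.

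The 1 kb extension left out few regions. With the midpoint rule, none of the 61 midpoints lay outside its gene's own span, and the midpoint closest to an end, that of the higher region in Khdrbs3, was 2015 bp inside it. Just outside were a lower region 1140 bp from the span of Srsf2 and a higher region 2636 bp from that of Ptbp3. Absence from both lists does not show that 5-hydroxymethylcytosine stayed the same in a gene, because read coverage is unknown.

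Higher regions were the wider ones in these genes, as in protein-coding genes at large. The 35 higher regions had a median of 526 bp (interquartile range 281 to 895.5 bp) and the 26 lower ones 400.5 bp (237 to 574.5 bp). All regions in protein-coding genes had medians of 583 bp for the 4865 higher and 321.5 bp for the 2128 lower. Widths of at least 1 kb were found in 7 higher regions, in Rbfox1, Rbfox3, Rbms1, Elavl1 and Pum2, and in 1 lower region, that of Rbpms. The shares were 20% of higher and 3.85% of lower regions, against 26.8% and 11.3% in all protein-coding genes. All 4 regions in SR and hnRNP genes were between 219 and 271 bp.

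**Figure D5:**
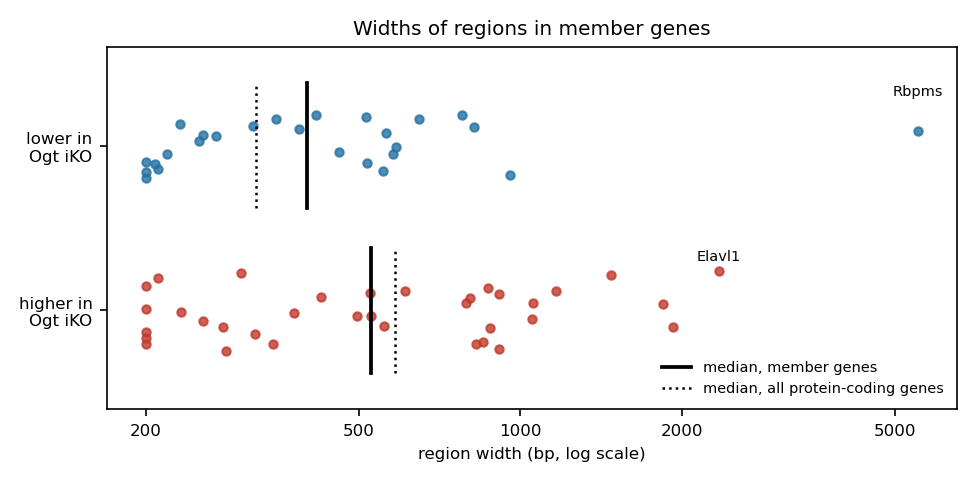
Width of each of the 61 regions (horizontal axis, bp, log scale), with higher regions in the lower row and lower regions in the upper row; vertical scatter within a row has no meaning. Solid lines are the medians in these genes (526 and 400.5 bp) and dotted lines those in all protein-coding genes (583 and 321.5 bp). The Rbpms region, singled out for its breadth, lies at 5525 bp, and the other lower regions reach 955 bp.

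Other genes of RNA processing gave like counts of both directions. Of 45 core spliceosome genes, 6 held regions (13.3%, against 14.3% of genes of like length), 4 higher and 4 lower, against 4.93 and 2.48 at the means of those genes. Of 53 other splicing regulators, 18 did (34.0%, against 20.7%), with 11 higher and 12 lower regions against 10.4 and 4.72. Of 32 other mRNA-binding protein genes, 10 did (31.2%, against 33.6%), with 8 higher and 7 lower regions against 12.0 and 5.09. Among the genes with the most regions were Tnrc6b (3 higher), a partner of Argonaute proteins, then Caprin1 (1 higher and 1 lower), the spliceosomal helicase gene Dhx8 (2 higher) and the stress granule gene G3bp2 (2 lower). Lower regions stood well above the summed means only in the other splicing regulators (12 against 4.72). In the other lists they were above them by few regions (4 against 2.48 and 7 against 5.09). Higher regions were near or below the summed means. No interval was computed for these sums.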

How the data were processed

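CMS-IP and input libraries were made from Ogt iKO and control cells, 2 of each. The authors deposited 2 lists of regions with chromosome, start and end on mm10 and no other unit: region positions in bp, with no score, count or p-value. Bismark and MACS2 are named in the submitters' processing notes; their roles, the differential test, its threshold and the use of inputs, spike-ins and replicates are not given in the sources used here. Depth is unknown, so no replicate error or test across samples was possible.

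List starts, read as 0-based, were raised by 1 for printing. Spans of genes are those in a RefSeq table (GRCm38.p6), limited to the assembled chromosomes 1 to 19, X and Y (49595 genes, 21774 protein-coding). Start sites and strand came from RefSeq promoter entries, which matched 49 of the 59 genes. Members were matched by symbol. Sharing of regions between genes was allowed. Genes of like length are other protein-coding genes within 20% of the span length. The genes, roles and lists were chosen with earlier results of these data known. Every gene with a region is named; of the other lists, the rule takes the 5 genes with the most regions (ties by symbol), of which 1 is not reported here. Alternatives were no flank, a 5 kb flank, any overlap of 1 bp, only regions of at least the median width (453 bp), and other length tolerances. A further alternative kept only the members marked as tissue-restricted. Counting was tested on simulated regions and equalled a direct search in 200 of 200 genes. Software was pandas 2.3.3, scipy 1.17.1 and numpy 2.4.6, under Python 3.11.15.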

Additional observations from a re-analysis of the deposited data

How the results depend on the processing

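Across 12 results and 56 recomputed values, 48 stayed within the stated error or 1.5 times the count, and none reversed. Each value was judged alone, not by its comparison with genes of like length. Such comparisons did change sides in places, as given below. Removing the flank, or counting any overlap of 1 bp, left all region counts as they were, and a 5 kb flank gave 36 higher and 27 lower regions. Restriction to regions of at least 453 bp gave 20 higher and 12 lower regions, 9 genes with a lower region, 0% of SR and hnRNP genes with a region, medians of 875 and 582 bp, and 3.78 regions per Mb of span (7.21 with all regions). The counts fall and the median widths rise by construction, since only wider regions are counted. The share of 0% then lies below the 7.63% of genes of like length, where with all regions it is 21.1% against 13.3%. At that restriction 62.5% of regions in these genes were higher, against 79.3% in other protein-coding genes. Leaving out Rbfox1 and Rbms3, the genes with spans over 1 Mb, was chosen after seeing the data: 23 higher and 23 lower regions remained (50.0% higher), against 26.1 and 10.7 in genes of like length. Higher regions then lay below the level of genes of like length, where over the 59 genes they lay above it (35 against 31.2). No paired analysis was possible because neither list gives a value for any sample. No replicate could be left out either. Intervals cover counting error over genes or regions and say nothing about replicate error.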

Other observations

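Where a gene held regions of both directions, the lower ones tended to lie nearer its 5′ end. Strand was listed for 8 of the 9 such genes, and in 7 of them (Celf1, Elavl4, Msi2, Ptbp2, Rbfox3, Rbms1 and Rbms3) the median position of the lower regions was closer to the 5′ end of the span than that of the higher regions. The distance was large in Elavl4 (3.21% of the span against 80.8%), Rbms1 (14.8% against 86.7%) and Ptbp2 (12.6% against 78.0%). Qk was the exception, at 76.8% against 64.0%. Among 557 other protein-coding genes with both directions, the lower regions were nearer the 5′ end in 307 (55.1%), and in 247 of 462 (53.5%) with spans of 60 to 1100 kb. Over all regions with a listed strand, the median position was 25.7% for 21 lower and 64.0% for 31 higher regions in these genes, against 43.5% and 54.1% in other protein-coding genes. The pattern was noticed after the positions were seen, it rests on few genes, and no test was made.

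Within 5 kb of a listed start lay 4 lower regions (Mbnl1, Srsf4, Srsf10 and Elavl4), 19.0% of 21, and 0 of 31 higher regions. The shares in other protein-coding genes were 22.8% and 10.3%. The genes that held the higher regions are long, and the part of length in this count was not tested.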
